A study of Mus musculus with 28 samples.

Results

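Kidneys of mouse embryos carrying targeted null alleles of both Hoxa11 and Hoxd11, called null kidneys here, were compared at E12.5, an embryonic day early in kidney development, with wild type kidneys of that age. The comparison takes every sample whose labels give these genotypes at E12.5, 2 null and 2 wild type, which are 4 of the 14 samples of the series and 8 of its 28 arrays, because each sample was run on both designs of an Affymetrix mouse array pair, 430A and 430B. Each null sample was both kidneys of 1 embryo, whose strain is not given in the sources used here. Each wild type sample was pooled kidneys of CD-1, an outbred stock. Whole kidneys were used throughout, so every value is an average over mesenchyme, ureteric epithelium, stroma, vessels and blood. All RNA was purified with the Stratagene Absolutely RNA Nanoprep Kit. Of each embryonic sample, 30 ng passed through 2 rounds of amplification by in vitro transcription before hybridisation. For adult samples the amount given is 100 ng. Genotype, stock, pooling and scan day cannot be told apart at E12.5, since the arrays of null and wild type kidneys shared no scan day. Signals of the X inactivation RNA Xist, given below, also differed between the groups, and embryo sex was not in the model. The other 10 samples, which are null and wild type kidneys at E13.5 and E16.5 and adult kidneys in pairs, entered the fit so that all 7 groups shared 1 estimate of the spread. The scan records of adult sample 2 do not match the labelled array design, and its values were used as labelled.

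Hox genes encode homeodomain transcription factors that pattern the body axis and the organs along it. Those of paralogous group 11 are active in the metanephric mesenchyme, where their proteins act together with Eya1 and Pax2 on genes such as Gdnf and Six2. GDNF from the mesenchyme signals through the receptor Ret on the ureteric bud and makes it grow in and branch, and the bud in turn induces the mesenchyme to form nephrons. Stroma and vessels develop around both. At this age the bud has begun to branch and the first nephrons are starting to form.

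Array quality moved with genotype. The ratio of the actin probe sets near the 3′ end to those near the 5′ end, which is larger where amplified RNA reaches less far from the 3′ end, lay between 1.26 and 2.27 on the 4 null arrays, against 3.23 to 4.38 on the 4 wild type arrays. For Gapdh the same ratio was 1.30 to 1.71 on null arrays and 1.45 to 1.61 on wild type arrays. Median signal was 539.2 and 537.7 on the null 430A arrays, against 384.2 and 392.6 on the wild type ones, whereas on 430B it was 585.1 and 594.8, against 638.4 and 640.9. Some counts below are therefore given also with that actin ratio added to the model. Log2 signals on 430A correlated at r = 0.943 between the null samples and at r = 0.984 between the wild type samples, against 0.838 to 0.873 across genotypes (0.915, 0.916, and 0.753 to 0.776 on 430B, over probe sets, as a description). The number of arrays limits the precision of every value. Each group holds 2 samples, which the series describes as biological replicates, single embryos for the null kidneys and pools for the wild type ones at this age.

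Over both designs, 5681 of 30561 tested probe sets (18.6%) differed at an adjusted p under 0.05 in limma, 3790 higher in null kidneys (12.4%) and 1891 lower (6.19%). Read by 1 probe set a gene, 1537 of 14111 genes rose (10.9%) and 1052 fell (7.46%), and the median log2 difference over all genes was -0.05. The gene groups below are read against those shares, also where a count is given without a percentage. Their lists were chosen with earlier results of these data known, so the shares describe the lists and are not tests. Called increases were larger, with a median of 1.81 on the log2 scale, against a median of -1.30 for called decreases, and 501 probe sets rose by over 3, whereas 20 fell by as much. Of the increases, 343 had wild type signals below the floor of 85.7 (430A) or 147.8 (430B) set before taking logs, so their size is a lower bound. The same holds for 58 decreases with both null samples below it. The balance of directions depended on the scaling. The median log2 difference over tested probe sets was 0.13 on 430A and -0.21 on 430B. Centring every array on its median turned these into -0.31 and -0.09 and gave 2842 higher and 3486 lower, and with quantile normalization there were 2933 higher and 1952 lower. Adding each array's actin ratio to the model left 780 calls, 599 higher and 181 lower. The count was 3540 without null sample 1, 2407 without null sample 2, 2051 without wild type sample 1 and 2216 without wild type sample 2.

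The targeted genes were looked at first. Hoxa11 had MAS5 signals of 398 and 500.1 in null kidneys, against 3431 and 2321 in wild type kidneys (log2 difference -2.66 ± 0.29, limma adjusted p = 0.000106). The groups lay far apart, and the signal left in the null kidneys was above the floor in both. That reduction was also called at E13.5 (-2.53 ± 0.29) and E16.5 (-3.21 ± 0.29). The 1 probe set for Hoxd11 gave 300.3 and 529.6 in null kidneys, against 395 and 418 in wild type kidneys, the wild type values lying between the null ones. It fell under the filter on dim probe sets. Where either probe set lies relative to the targeted part of its gene is not given in the sources used here, so the Hoxd11 values check nothing.

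The genes of the mesenchymal network around Hox11, Eya1 and Pax2 did not move as a block. Of 26 tested members, 3 rose and 7 fell, with a median log2 difference of -0.10. The share that fell, 26.9%, stands against 7.46% of all genes, and the share that rose, 11.5%, against 10.9%. Eya1, the cofactor that joins Hox11 and Pax2 proteins, had signals of 7273 and 5476 in null kidneys, against 22907 and 13607 in wild type kidneys (log2 difference -1.48 ± 0.43, limma adjusted p = 0.0278). Both null values were lower than both wild type values, although a second Eya1 probe set differed by 1.20 in the opposite direction. Gdnf, the ligand for Ret, had signals of 1713 and 1448 in null kidneys, against 3512 and 3069 in wild type kidneys (log2 difference -1.06 ± 0.25, limma adjusted p = 0.011) and no overlap between the groups. Six2, which keeps nephron progenitors undifferentiated and is a target of the Hox11 complex, had 1445 and 1469 in null kidneys, against 1434 and 1508 in wild type kidneys. Its groups overlapped, and the difference of -0.01 ± 0.30 did not pass the test (adjusted p = 0.99).

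Besides Hoxa11, the largest reductions in this network were those of Cited1, Crym and Meox2. Cited1, a transcriptional coregulator found in the uninduced cap, had signals of 30.3 and 431 in null kidneys, against 1469.7 and 1731 in wild type kidneys (log2 difference -3.05 ± 0.59, limma adjusted p = 0.00355). Its 2 null samples differed widely, one below the floor and one well above it, and both stood far below wild type. Crym, a thyroid hormone binding protein of the cap, had 1048 and 775 in null kidneys, against 6118 and 2791 in wild type kidneys (log2 difference -2.20 ± 0.51, limma adjusted p = 0.01). Meox2, a homeobox gene of the mesenchyme, had 487 and 451 in null kidneys, against 1754 and 1369 in wild type kidneys (log2 difference -1.73 ± 0.31, limma adjusted p = 0.00223), and its second probe set fell by 2.12 as well. Rspo3, a secreted amplifier of Wnt signalling, had 6707 and 4275 in null kidneys, against 9589.8 and 11681 in wild type kidneys (log2 difference -0.98 ± 0.31, limma adjusted p = 0.0416). Null and wild type samples did not overlap for any of these genes, which was true of 66.4% of all tested probe sets. In bulk samples, fewer cells of a type and less RNA per cell cannot be told apart.

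**Figure D1:**
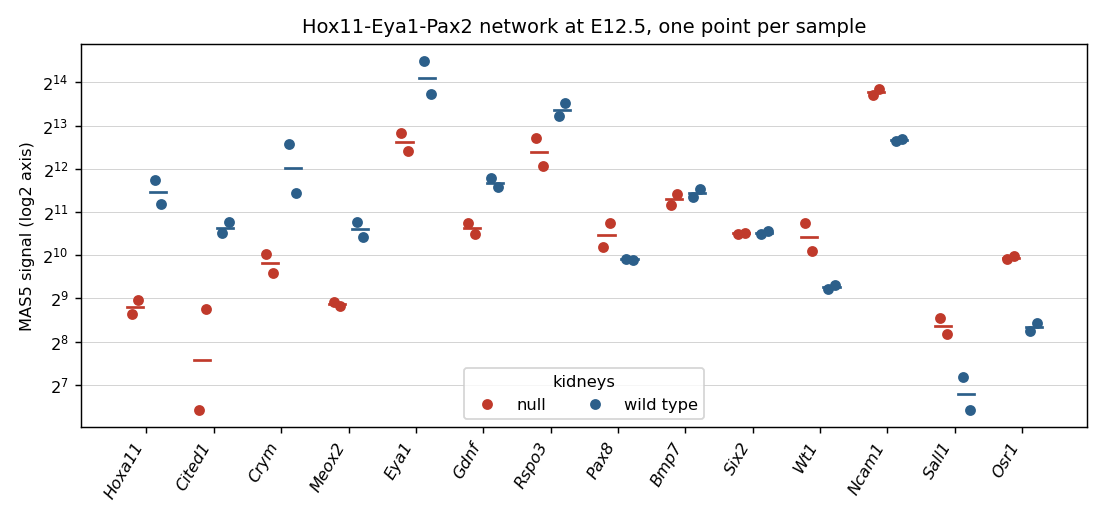
Floored MAS5 signal (log2 axis) of 14 genes of the metanephric mesenchyme in the 2 null and the 2 wild type kidney samples at E12.5, null left of wild type for each gene; points are samples and bars are group means of log2 signal. Hoxa11, Cited1, Crym, Meox2, Eya1, Gdnf and Rspo3 lie lower in both null samples, Osr1, Ncam1 and Sall1 lie higher, and the groups of Six2 overlap.

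Other members of the network rose or did not pass. Osr1, the odd-skipped gene of the earliest kidney field, had 964 and 1009 in null kidneys, against 304 and 347 in wild type kidneys (log2 difference 1.60 ± 0.39, limma adjusted p = 0.0134). Sall1, a zinc finger gene needed for the bud to enter the mesenchyme, had 375 and 292 in null kidneys, against 145 and 62.1 in wild type kidneys (log2 difference 1.57 ± 0.48, limma adjusted p = 0.0368), at signals close to the floor, and its second probe set differed by -0.56 without passing. Ncam1, an adhesion molecule of induced mesenchyme, had 13285 and 14604 in null kidneys, against 6440.5 and 6627 in wild type kidneys (log2 difference 1.09 ± 0.26, limma adjusted p = 0.012), with all 4 of its probe sets higher. Wt1, required for the mesenchyme to survive, had 1713 and 1102 in null kidneys, against 594 and 637 in wild type kidneys, a difference of 1.16 ± 0.38 that missed the threshold (adjusted p = 0.0506). Pax8 (0.56 ± 0.27), Bmp7 (-0.14 ± 0.27) and Itga8 (0.58 ± 0.42) did not pass either. Of the 10 calls, those of Hoxa11, Cited1 and Meox2 held when any 1 sample was left out and with the actin ratio as a covariate, and the other 7 were lost in at least one of those settings.

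In the ureteric tip, Ret itself did not pass, while other genes of the list did. Of 24 genes of the Ret pathway and the tip, 5 rose (20.8%, against 10.9% of all genes) and 1 fell (4.17%, against 7.46%), with a median of -0.04. Ret itself had signals of 401 and 656 in null kidneys, against 530.2 and 578 in wild type kidneys, and its difference of -0.11 ± 0.33 did not pass (adjusted p = 0.849). Wnt11, a tip ligand raised by Ret signalling, had 1532 and 2705 in null kidneys, against 1824 and 1917 in wild type kidneys (log2 difference 0.12 ± 0.34, limma adjusted p = 0.838), and the factors Etv4 and Etv5, which Ret signalling raises, differed by -0.64 ± 0.67 and 0.76 ± 0.38 without passing, although a second Etv4 probe set was called higher (2.27). Emx2, a homeobox gene of the bud, was the 1 that fell, with 1580 and 3141 in null kidneys, against 5717 and 6301 in wild type kidneys (log2 difference -1.43 ± 0.39, limma adjusted p = 0.0216). The chemokine Cxcl12 had 22214 and 27579.7 in null kidneys, against 8578 and 10362 in wild type kidneys (log2 difference 1.39 ± 0.24, limma adjusted p = 0.00206), with both null values far above the wild type ones. Its receptor Cxcr4, the tip factor Sox9, the homeobox gene Lhx1 and the signalling inhibitor Spred2 rose, with log2 differences of 1.09 to 2.38 (limma adjusted p = 0.00379 to 0.0413). With every array centred on its median the list had 1 higher and 1 lower.

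Genes of the ureteric trunk and its epithelium leaned lower. Of 38 tested, 9 fell (23.7%, against 7.46% of all genes) and 2 rose, with a median of -0.31. Calb1, a calcium binding protein of the ureteric tree, had signals of 1336 and 2010.2 in null kidneys, against 8256 and 7661 in wild type kidneys (log2 difference -2.28 ± 0.30, limma adjusted p = 0.000369). The junction proteins Cldn8 and Cldn3, the epithelial splicing regulator Esrp1 and the epithelial cadherin Cdh1 fell, with log2 differences of -1.08 to -1.48 (limma adjusted p = 0.00856 to 0.0348). Krt8, a keratin of simple epithelia, had 1749 and 4796 in null kidneys, against 6722 and 6548 in wild type kidneys (log2 difference -1.20 ± 0.38, limma adjusted p = 0.0446), and its partner Krt18 had 1388 and 3134 in null kidneys, against 4477 and 4688 in wild type kidneys (log2 difference -1.14 ± 0.37, limma adjusted p = 0.0464). Null sample 1 lay far below wild type for both keratins, whereas null sample 2 lay closer to it. Over the list, the median deviation from the wild type mean was -0.68 in null sample 1 and -0.09 in null sample 2. The number that fell was 1 without null 1, 9 without null 2, 1 without wild type 1 and 2 without wild type 2, and Calb1 was the only one of the list to keep its call without each sample in turn. The 2 that rose were transcription factors of the nephric duct lineage. Gata3 had 547 and 1438 in null kidneys, against 204 and 127 in wild type kidneys (log2 difference 2.46 ± 0.53, limma adjusted p = 0.00699), and Gata2 had 2141 and 4037 in null kidneys, against 769 and 1198 in wild type kidneys (log2 difference 1.61 ± 0.33, limma adjusted p = 0.00467), with null sample 2 the higher for both. Shh (-0.21 ± 0.47) and Wnt9b (0.04 ± 0.39), ligands made by the trunk, did not pass.

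**Figure D2:**
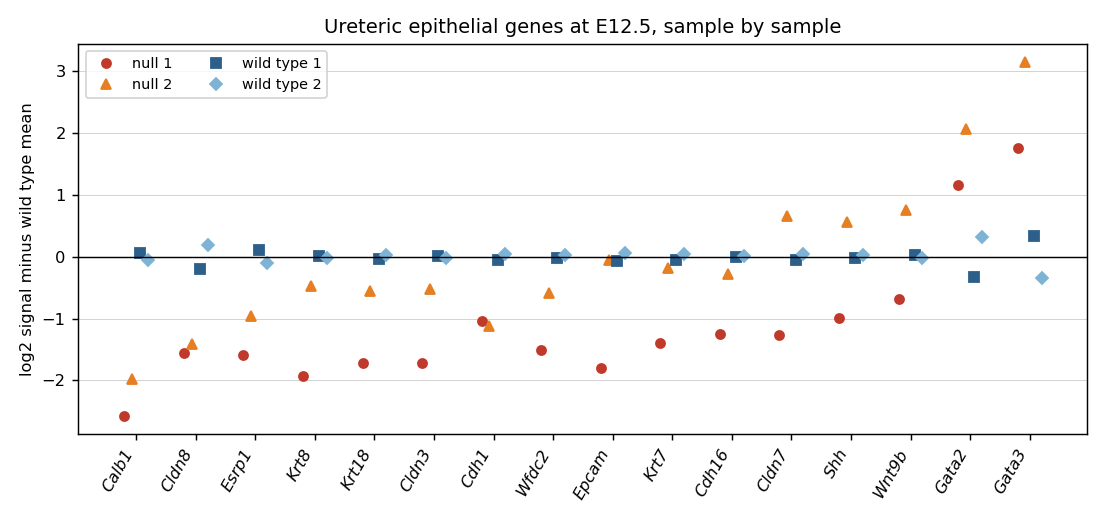
Log2 signal minus the wild type mean (y axis) for 16 genes of the ureteric trunk and its epithelium in each of the 2 null and 2 wild type kidney samples at E12.5; each point is a sample and 0 is the wild type mean. The points of null sample 1 lie below those of null sample 2 for Krt8, Krt18, Cdh16 and Epcam, and both lie near -2 for Calb1.

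Genes of the first nephrons and of Notch signalling, which sets the proximal fate of nephron cells, leaned the other way. Of 38 tested, 17 rose and 1 fell, with a median of 0.88. The receptor Notch4, which is also made by vessels, had 2212 and 2660.1 in null kidneys, against 291 and 473 in wild type kidneys (log2 difference 2.71 ± 0.38, limma adjusted p = 0.000519), while another of its probe sets differed by -1.65. Notch1 had 2982 and 3678 in null kidneys, against 872 and 926 in wild type kidneys (log2 difference 1.88 ± 0.31, limma adjusted p = 0.00127). The ligands Jag1 and Dll1, the receptor Notch2 and the Notch target Nrarp rose, with log2 differences of 0.90 to 1.78 (limma adjusted p = 0.0042 to 0.0375). Among markers of nephron segments, the cadherin Cdh6 had 746 and 882 in null kidneys, against 223 and 193 in wild type kidneys (log2 difference 1.97 ± 0.35, limma adjusted p = 0.00214), and the cadherin Cdh4, the homeobox gene Irx3 and the podocyte protein Podxl rose, with log2 differences of 1.10 to 2.43 (limma adjusted p = 0.00352 to 0.0264). A second Cdh6 probe set, with brighter signals, differed by 0.002, and a second Podxl probe set differed by 0.02. Neither of these passed. Foxc1, a forkhead factor of mesenchyme and podocytes, had 7261 and 7514 in null kidneys, against 1599.7 and 1979 in wild type kidneys (log2 difference 2.05 ± 0.29, limma adjusted p = 0.00059), with groups far apart. Pou3f3 (-0.70 ± 0.35) and Ccnd1 (-0.17 ± 0.22), which are active in the early tubule, did not pass, although another Ccnd1 probe set was called higher (2.53). The count of rises was 12 without null 1, 10 without null 2, 11 without wild type 1 and 13 without wild type 2, and 2 with the actin ratio as a covariate, where Notch4 and Foxc1 kept their calls.

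Vessel genes had the highest share of rises among the 30 lists. Of 37 endothelial genes tested, 23 rose (62.2%, against 10.9% of all genes) and 0 fell, with a median of 1.24. Vwf, the clotting factor stored in endothelial cells, had 2419 and 4931 in null kidneys, against 31.2 and 102 in wild type kidneys (log2 difference 5.21 ± 0.43, limma adjusted p = 2.91e-05). One wild type signal lay below the floor of 85.7 and the other just above it. Tie1, a receptor kinase of endothelium, had 2209 and 2428 in null kidneys, against 212 and 123 in wild type kidneys (log2 difference 3.84 ± 0.36, limma adjusted p = 4.06e-05), with no overlap. Kdr, the main receptor for VEGF, had 8178 and 10456 in null kidneys, against 1748 and 1807 in wild type kidneys (log2 difference 2.38 ± 0.30, limma adjusted p = 0.000264). Null samples were several fold above wild type for both. The phosphatase Ptprb had 1640.3 and 1441 in null kidneys, against 115 and 110.3 in wild type kidneys (log2 difference 3.77 ± 0.32, limma adjusted p = 2.91e-05). The endothelial cadherin Cdh5, the VEGF receptor Flt1 and the coreceptors Nrp1 and Nrp2 rose, with log2 differences of 2.47 to 3.09 (limma adjusted p = 0.000106 to 0.00138). Cldn5 (0.75 ± 0.34), a junction protein, and Ramp2 (-0.03 ± 0.25), a coreceptor, did not pass. The number that rose was 18 without null 1, 17 without null 2, 16 without wild type 1 and 16 without wild type 2, and Tie1, Kdr, Flt1, Cdh5, Vwf, Ptprb, Nrp1 and Nrp2 were among those called in every alternative tried, the actin covariate included. 

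Of 18 ligands and regulators of vessel growth, 8 rose and 2 fell. Edn1, a vessel constricting peptide, had 788 and 740.2 in null kidneys, against 98.9 and 112 in wild type kidneys (log2 difference 2.86 ± 0.36, limma adjusted p = 0.000268), and Epas1, a hypoxia factor abundant in endothelium, had 40668 and 46540 in null kidneys, against 9046 and 7364 in wild type kidneys (log2 difference 2.41 ± 0.27, limma adjusted p = 0.000109). Pdgfb, the ligand that draws pericytes to vessels, had 1858 and 1894 in null kidneys, against 527 and 452 in wild type kidneys (log2 difference 1.94 ± 0.27, limma adjusted p = 0.000476). Thbs1, an inhibitor of vessel growth, had 1518 and 686 in null kidneys, against 165 and 149 in wild type kidneys (log2 difference 2.70 ± 0.47, limma adjusted p = 0.00186). These 4 kept their calls in every alternative. Hif1a, a hypoxia factor, and the growth factor Pdgfc fell, with log2 differences of -1.15 to -1.19 (limma adjusted p = 0.0142 to 0.0428). Angpt1, the ligand of Tek, had 2928 and 2844 in null kidneys, against 3052 and 3707 in wild type kidneys. Both null values lay below both wild type values, but the difference did not pass. Macrophage markers moved with the vessel genes. Of 18 tested, 8 rose, and all 18 had a positive difference. The summed signal of these markers was 31721 and 24787 in null kidneys, against 9373 and 10508 in wild type kidneys. Csf1r, the receptor of the macrophage growth factor, had 7714 and 6588 in null kidneys, against 1433 and 1619 in wild type kidneys (log2 difference 2.23 ± 0.24, limma adjusted p = 8.85e-05), and the chemokine receptor Cx3cr1 had 1524 and 1332 in null kidneys, against 159 and 64.1 in wild type kidneys (log2 difference 3.61 ± 0.42, limma adjusted p = 0.000148), and both held throughout. The markers Pf4 (1.01 ± 0.42) and C1qb (0.55 ± 0.37) did not pass. Their part in the vessel result was not tested.

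**Figure D3:**
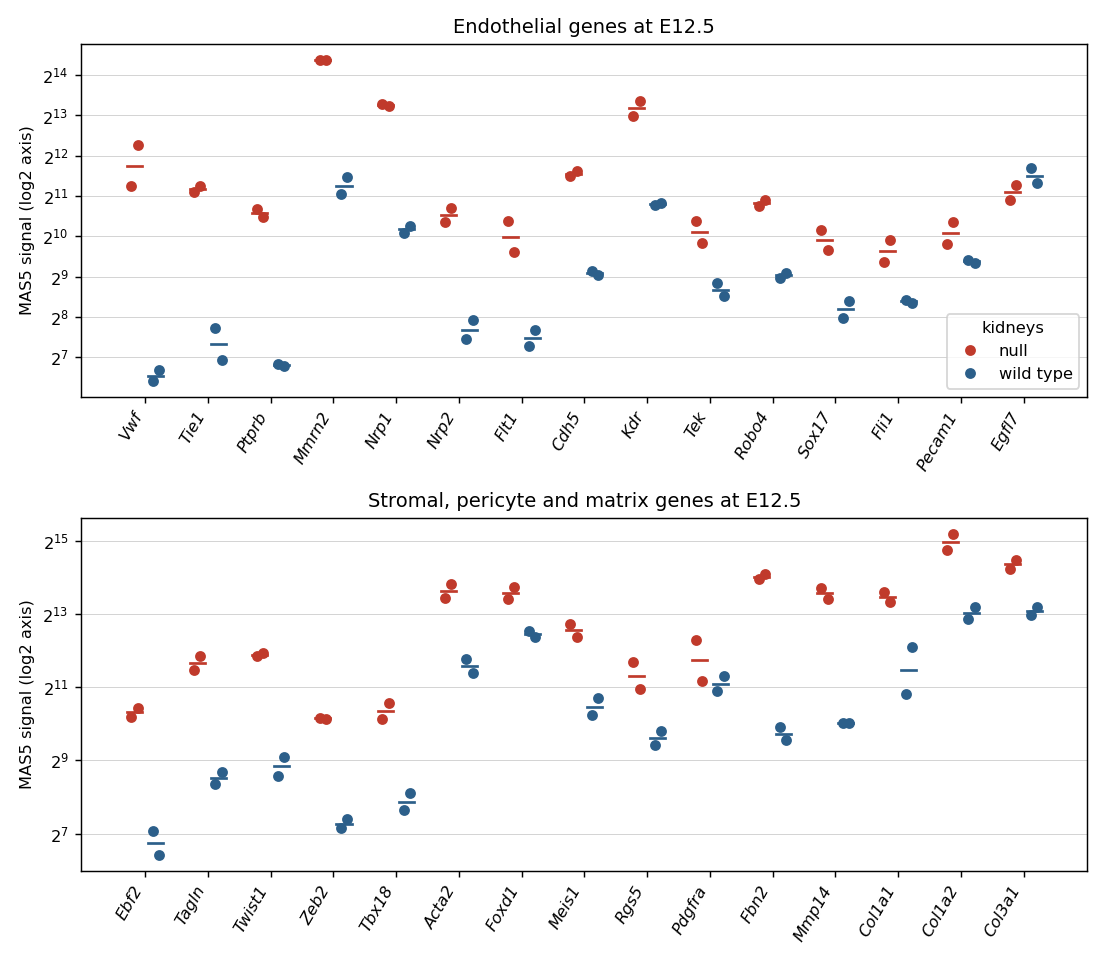
Floored MAS5 signal (log2 axis) of endothelial genes and of stromal and matrix genes in the 2 null and the 2 wild type kidney samples at E12.5, null left of wild type for each gene; points are samples and bars are group means of log2 signal. Null samples lie above wild type samples for every called gene shown, by the widest margin for Vwf and Fbn2.

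A promoter is printed for 1 endothelial gene that rose, to show the short ETS-type motif that many vessel genes carry. Robo4, a receptor that steadies vessels, had 1727 and 1911 in null kidneys, against 504 and 550.5 in wild type kidneys (log2 difference 1.79 ± 0.27, limma adjusted p = 0.000841). Its promoter from RefSeq (GRCm38.p6, chr9:37401722-37402021, plus strand, 250 bases before the start and 50 after) holds 1 match to CAGGAAG on either strand, in capitals:
Robo4: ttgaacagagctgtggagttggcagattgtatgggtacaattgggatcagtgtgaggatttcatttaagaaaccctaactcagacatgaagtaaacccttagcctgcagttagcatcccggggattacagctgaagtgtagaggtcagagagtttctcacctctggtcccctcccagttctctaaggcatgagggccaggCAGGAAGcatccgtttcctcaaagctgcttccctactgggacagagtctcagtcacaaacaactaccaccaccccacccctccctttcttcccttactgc
Of 37 tested endothelial genes 18 had a promoter in the table, and 5 of those (27.8%) held the motif, against 3503 of 27025 promoters (12.96%). Of the 10 among them that rose, 1 held it. A match is a run of letters, not a shown binding site.

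Stromal and pericyte genes rose as widely as those of vessels. Of 36 tested, 21 rose (58.3%) and 0 fell, with a median of 1.21. Ebf2, a factor of renal stroma, had 1155 and 1392 in null kidneys, against 135 and 72 in wild type kidneys (log2 difference 3.56 ± 0.45, limma adjusted p = 0.000237). Twist1, a basic helix-loop-helix factor of mesenchyme, had 3667 and 3913 in null kidneys, against 378 and 549.8 in wild type kidneys (log2 difference 3.05 ± 0.36, limma adjusted p = 0.000144), and Zeb2, a zinc finger repressor, had 1149.7 and 1128 in null kidneys, against 142 and 168 in wild type kidneys (log2 difference 2.88 ± 0.28, limma adjusted p = 4.74e-05). No wild type sample reached a null sample for these genes. Of the smooth muscle genes, Acta2 had 11020.1 and 14463 in null kidneys, against 3464 and 2697 in wild type kidneys (log2 difference 2.05 ± 0.26, limma adjusted p = 0.000278), and Tagln had 2846 and 3683 in null kidneys, against 327 and 409 in wild type kidneys (log2 difference 3.15 ± 0.39, limma adjusted p = 0.000216). The stromal factors Tbx18, Meis1 and Nr2f2 rose, with log2 differences of 2.10 to 2.71 (limma adjusted p = 0.000323 to 0.000962). Foxd1, which marks cortical stroma, had 10869 and 13725 in null kidneys, against 5884 and 5343 in wild type kidneys (log2 difference 1.12 ± 0.33, limma adjusted p = 0.03). Tcf21 (0.17 ± 0.41), an early mesenchymal factor, and Fat4 (0.50 ± 0.41), a stromal cadherin, did not pass. The count was 15 without null 1, 11 without null 2, 12 without wild type 1 and 11 without wild type 2, and 9 genes, Ebf2, Twist1, Zeb2, Acta2, Tagln, Tbx18, Meis1, Nr2f2 and Foxc1, kept their calls in every alternative.

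Genes of the interstitial matrix, much of it laid down by such cells, rose too. Of 43 tested, 19 rose and 0 fell, with a median of 0.85. Fbn2, a fibrillin of embryonic matrix, had 15819.8 and 17514 in null kidneys, against 958 and 750.4 in wild type kidneys (log2 difference 4.30 ± 0.37, limma adjusted p = 3.10e-05). Mmp14, a membrane protease that cuts collagen, had 13373 and 10918 in null kidneys, against 1033 and 1042 in wild type kidneys (log2 difference 3.54 ± 0.31, limma adjusted p = 3.87e-05). Col1a1, the main fibrillar collagen, had 12362 and 10368 in null kidneys, against 1808 and 4423 in wild type kidneys (log2 difference 2.00 ± 0.44, limma adjusted p = 0.00753), with its wild type samples apart from one another. The collagens Col5a1, Col5a2 and Col3a1 and the elastic fibre protein Emilin1 rose, with log2 differences of 1.26 to 2.21 (limma adjusted p = 0.000232 to 0.00116), whereas fibronectin Fn1 (0.49 ± 0.24) and the collagen chaperone Serpinh1 (0.30 ± 0.26) did not pass, although a second probe set of each was called higher (3.40 for Fn1 and 0.92 for Serpinh1). The count was 15 without null 1, 14 without null 2, 10 without wild type 1 and 13 without wild type 2, and 9 with the actin covariate. Among markers of cartilage, the collagens Col9a1 and Col2a1 rose. Col9a1 had 8759.9 and 8267 in null kidneys, against 1831 and 2362 in wild type kidneys (log2 difference 2.03 ± 0.37, limma adjusted p = 0.00265) and Col2a1 3779.9 and 4512 in null kidneys, against 1002 and 1266 in wild type kidneys (log2 difference 1.87 ± 0.39, limma adjusted p = 0.00553), so 3 of 7 tested markers of muscle and cartilage rose, with 2 higher and 1 lower under median centring. With the actin covariate 0 of the 3 calls held. The cartilage proteoglycan Acan (0.04 ± 0.37) did not pass. Matn1, a cartilage matrix gene under the filter on dim probe sets, had 50.7 and 26.8 in null kidneys, against 170.8 and 172 in wild type kidneys. The part of cartilage markers in the matrix result was not tested.

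Of 28 basement membrane genes, 8 rose and 1 fell. The paired collagen chains Col4a1, with 10655 and 10857 in null kidneys, against 3690.1 and 4215 in wild type kidneys (log2 difference 1.45 ± 0.22, limma adjusted p = 0.000927), and Col4a2, with 8429 and 9244 in null kidneys, against 2937 and 3329.9 in wild type kidneys (log2 difference 1.50 ± 0.23, limma adjusted p = 0.000996), held in every alternative. The laminin chain Lamb2, the linker Nid2 and the integrin Itga6 rose, with log2 differences of 1.53 to 1.79 (limma adjusted p = 0.00272 to 0.0038). Frem2, an adhesion protein that bridges epithelium and mesenchyme, fell, with 7301 and 6895 in null kidneys, against 21200.3 and 17490.3 in wild type kidneys (log2 difference -1.44 ± 0.33, limma adjusted p = 0.00925).

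Signalling pathways gave mixed counts. In the retinoic acid pathway, which stroma uses to keep Ret active in the bud, 4 of 15 genes rose and 1 fell, with 3 higher and 3 lower under median centring. The 1 that fell was Aldh1a1, an enzyme that makes retinoic acid, with 34.3 and 83.2 in null kidneys, against 1122 and 1227 in wild type kidneys. Both null values lay below the floor, so the log2 difference of -3.78 ± 0.34 (adjusted p = 3.87e-05) understates the fall, which is at least that large. Cyp26b1, which breaks the acid down, had 8668 and 9252 in null kidneys, against 3508 and 3999.8 in wild type kidneys (log2 difference 1.26 ± 0.31, limma adjusted p = 0.0145). The receptor Rxra rose (log2 difference 1.64 ± 0.28, limma adjusted p = 0.00189), and Rdh10 (-0.09 ± 0.21), the enzyme before Aldh1a1 in the pathway, did not pass, although its second probe set was called lower (-1.19). Of 38 Wnt genes, 14 rose and 2 fell, a median of 0.56. The receptor Fzd1 had 591 and 686 in null kidneys, against 109.7 and 169 in wild type kidneys (log2 difference 2.23 ± 0.33, limma adjusted p = 0.000782), and it and the polarity protein Vangl2 (log2 difference 1.78 ± 0.30, limma adjusted p = 0.00163) held in every alternative. The feedback target Axin2 and the antagonists Sfrp1 and Sfrp2 rose, with log2 differences of 1.50 to 2.55 (limma adjusted p = 0.000927 to 0.00406). Dkk1, another antagonist, fell (log2 difference -1.34 ± 0.37, limma adjusted p = 0.0249), and Ctnnb1, the pathway's intracellular effector, had 16042 and 17525 in null kidneys, against 21058 and 20781 in wild type kidneys and did not pass.

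In the BMP and TGF-beta pathways 12 of 35 rose and 1 fell. The ligand Tgfb2 had 1401 and 1409 in null kidneys, against 165 and 228 in wild type kidneys (log2 difference 2.86 ± 0.46, limma adjusted p = 0.00123), and the inhibitor Smad6 had 3559 and 4132 in null kidneys, against 771 and 773 in wild type kidneys (log2 difference 2.31 ± 0.28, limma adjusted p = 0.000185). Bmp4, a ligand that restrains branching, rose (log2 difference 1.58 ± 0.35, limma adjusted p = 0.00781). The BMP target Id2 fell (log2 difference -0.76 ± 0.23, limma adjusted p = 0.032). Of 14 FGF pathway genes 1 rose, against 10.9% of all genes, namely Fgf1, at 1.08 ± 0.34. Axon guidance genes, many of them active in vessels and mesenchyme too, had 12 rises and 1 fall in 42. Slit3, a secreted repellent, had 2178 and 2658 in null kidneys, against 31 and 144 in wild type kidneys (log2 difference 4.43 ± 0.52, limma adjusted p = 0.000155), with no overlap. Sema3d, a secreted semaphorin, had 917 and 590.3 in null kidneys, against 3249.5 and 2712 in wild type kidneys (log2 difference -2.01 ± 0.44, limma adjusted p = 0.00742) and was the 1 that fell. The ephrin receptor Epha7 had 953 and 2134 in null kidneys, against 35.7 and 31.2 in wild type kidneys, with wild type below the floor, so its difference of 4.06 ± 0.39 is a lower bound. Neural markers were looked at beside them. Of 14 markers of neurons and crest, 4 rose, namely Elavl4, Dbh, Nefm and Isl1, with log2 differences of 1.37 to 2.84 (limma adjusted p = 0.000956 to 0.0203). Isl1 had 202 and 1878 in null kidneys, against 27.9 and 65.5 in wild type kidneys. It was far higher in null sample 2 than in null sample 1, and with wild type below the floor its difference is a lower bound. A second Isl1 probe set was also called higher, with 406.9 and 1094.6 in null kidneys, against 24.7 and 121.1 in wild type kidneys. The markers Sox10 (0.49 ± 0.37) and Dcx (-0.38 ± 0.34) were among those that did not pass. Of the 4 calls, 1 (Isl1) held with both quantile normalization and median centring, 1 (Elavl4) with the actin covariate, and 0 in every alternative. The part of neural markers in the guidance result was not tested.

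Among 22 other Hox genes tested, 7 rose and 0 fell. Hoxa5 had 3390 and 3643 in null kidneys, against 524 and 746 in wild type kidneys (log2 difference 2.49 ± 0.39, limma adjusted p = 0.00106), but a second Hoxa5 probe set was called lower (-1.18). Hoxa3 had 651 and 646 in null kidneys, against 199 and 176 in wild type kidneys (log2 difference 1.79 ± 0.31, limma adjusted p = 0.00208). Hoxc10, of the neighbouring paralogous group, had 51155 and 35878 in null kidneys, against 14878 and 15512 in wild type kidneys (log2 difference 1.50 ± 0.33, limma adjusted p = 0.00831). Hoxa9 and Hoxd9, active in the same body region, differed by -0.42 ± 0.29 and 0.04 ± 0.25, neither called. With the actin covariate only Hoxc10 was called, and centring on the median gave 4 higher and 4 lower.

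Falls were most frequent in lists of energy metabolism and protein synthesis. Of 68 subunits and assembly genes of the respiratory chain and ATP synthase, 30 fell (44.1%) and 0 rose, and no member had a positive difference. The list median was -0.78. Uqcrh, a hinge subunit of complex III, had 2605 and 2102 in null kidneys, against 9476 and 10939 in wild type kidneys (log2 difference -2.12 ± 0.27, limma adjusted p = 0.000268). Ndufb3, of complex I, had 2617 and 1712 in null kidneys, against 9229.9 and 7397 in wild type kidneys (log2 difference -1.96 ± 0.29, limma adjusted p = 0.000731), and Ndufa5, of the same complex, had 1878 and 1809.6 in null kidneys, against 5757 and 6504 in wild type kidneys (log2 difference -1.73 ± 0.26, limma adjusted p = 0.000762). Ndufv2 and, in complex IV, Cox7a2 fell, with log2 differences of -1.05 to -1.16 (limma adjusted p = 0.0037 to 0.00385). These 5 fell in every alternative. Atp5a1 (-0.11 ± 0.18) and Atp5g3 (-0.51 ± 0.21), subunits of ATP synthase, did not pass. The count moved with scaling, to 16 with quantile normalization and 55 with median centring, and was 13 without null 1, 14 without null 2, 7 without wild type 1 and 10 without wild type 2.

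Promoters of 3 respiratory chain genes that fell are printed because the motif CCGGAAG, known from promoters of nuclear genes for mitochondrial proteins, was held by 15 of the 57 list members with a promoter in the table (26.3%), 10 of which fell, against 2465 of 27025 promoters (9.12%). Of all 57, 26 fell, and a link between motif and fall was not tested. RefSeq places the Uqcrh promoter at chr4:116075021-116075320 (GRCm38.p6, minus strand), that of Uqcr11 at chr10:80406772-80407071 (minus strand) and that of Cox6b1, a subunit of complex IV, at chr7:30626065-30626364 (minus strand). Each holds 1 match on either strand, in capitals:
Uqcrh: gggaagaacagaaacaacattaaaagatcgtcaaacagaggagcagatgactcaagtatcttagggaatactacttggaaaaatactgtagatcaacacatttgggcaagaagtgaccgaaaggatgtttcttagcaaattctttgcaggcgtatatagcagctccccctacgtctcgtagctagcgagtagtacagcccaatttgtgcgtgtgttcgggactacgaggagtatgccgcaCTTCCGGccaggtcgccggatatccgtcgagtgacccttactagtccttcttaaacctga
Uqcr11: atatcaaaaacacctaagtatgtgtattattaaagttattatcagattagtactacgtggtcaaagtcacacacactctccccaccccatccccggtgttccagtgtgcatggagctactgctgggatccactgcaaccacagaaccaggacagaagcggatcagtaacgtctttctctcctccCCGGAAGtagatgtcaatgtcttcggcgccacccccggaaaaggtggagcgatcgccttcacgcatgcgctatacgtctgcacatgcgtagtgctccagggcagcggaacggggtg
Cox6b1: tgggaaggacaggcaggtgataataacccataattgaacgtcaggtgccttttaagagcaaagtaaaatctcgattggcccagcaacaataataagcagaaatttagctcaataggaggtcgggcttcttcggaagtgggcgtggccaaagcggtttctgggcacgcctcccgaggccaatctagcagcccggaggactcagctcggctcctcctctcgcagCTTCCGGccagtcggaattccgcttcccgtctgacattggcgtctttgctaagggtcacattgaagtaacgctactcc
GCCATNTTG was held by 8 of the same 57 (14.04%), 2 of which fell, against 2.65% of all promoters. A match does not show that a factor binds there.

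Uqcr11, another subunit of complex III, had 2070.4 and 3248 in null kidneys, against 8088 and 6886 in wild type kidneys (log2 difference -1.53 ± 0.37, limma adjusted p = 0.0121), and Cox6b1 had 13259 and 9891 in null kidneys, against 28604 and 28043 in wild type kidneys (log2 difference -1.31 ± 0.22, limma adjusted p = 0.00176). Of 35 ribosomal protein genes, 11 fell and 0 rose, with a median of -0.57. Rps25 had 2771 and 2501 in null kidneys, against 8262 and 5273 in wild type kidneys (log2 difference -1.33 ± 0.28, limma adjusted p = 0.00626), and Rps15 had 11171 and 14342 in null kidneys, against 31099 and 29536 in wild type kidneys (log2 difference -1.26 ± 0.29, limma adjusted p = 0.0098). None of the 11 kept its call without each sample in turn, and the count was 6 with quantile normalization and 27 with median centring. Among 52 genes of DNA replication and mitosis, 10 fell and 0 rose. Gmnn, which limits replication to once a cycle, had 2176 and 1489 in null kidneys, against 6958 and 6677 in wild type kidneys (log2 difference -1.92 ± 0.28, limma adjusted p = 0.000682), and it, the replication gene Gins1 and the securin gene Pttg1 (log2 differences of -1.55 to -1.95 (limma adjusted p = 0.000927 to 0.00546)) fell in every alternative. The helicase gene Mcm7 (-0.32 ± 0.19) did not pass. Of 26 glycolysis and hypoxia genes, 2 rose and 4 fell, against 10.9% and 7.46% of all genes. Pdk1, whose kinase limits the use of pyruvate by mitochondria, had 1809.7 and 1664 in null kidneys, against 471 and 585 in wild type kidneys (log2 difference 1.72 ± 0.31, limma adjusted p = 0.00222). Ldha, which makes lactate, had 14558 and 16898 in null kidneys, against 31498 and 30491 in wild type kidneys (log2 difference -0.98 ± 0.20, limma adjusted p = 0.00445).

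Chromatin regulators were the largest of the groups with rises and no fall. Of 52, 20 rose, with a median of 0.81. Kdm5b, a histone demethylase, had 8994 and 4952 in null kidneys, against 1498 and 1617 in wild type kidneys (log2 difference 2.10 ± 0.31, limma adjusted p = 0.000762), and Kmt2a, a histone methyltransferase, had 3466 and 2289 in null kidneys, against 685 and 519.6 in wild type kidneys (log2 difference 2.24 ± 0.32, limma adjusted p = 0.000596). Kdm6b had 4656 and 40667 in null kidneys, against 404 and 332 in wild type kidneys (log2 difference 5.23 ± 0.78, limma adjusted p = 0.000697) and null samples that lay far apart. Centring on the median gave 13 higher and 3 lower. Among 34 immediate early and heat shock genes, 7 rose and 3 fell, against 10.9% and 7.46% of all genes. The balance turned under median centring, to 3 higher and 6 lower. Jund, a subunit of the AP-1 factor, had 5671 and 6029 in null kidneys, against 1232 and 1246 in wild type kidneys (log2 difference 2.24 ± 0.30, limma adjusted p = 0.000397). The genes that fell were the chaperones Hspa8, Hsp90aa1 and Hsph1, with log2 differences of -0.67 to -1.59 (limma adjusted p = 0.0124 to 0.0284), although 1 of the other Hsp90aa1 probe sets was called higher (1.47). Among 20 imprinted and growth genes, 5 rose. The growth factor receptor Igf1r had 1902 and 3520.5 in null kidneys, against 392 and 529.5 in wild type kidneys (log2 difference 2.51 ± 0.36, limma adjusted p = 0.000596), while the cell cycle inhibitor Cdkn1c (0.14 ± 0.27) did not pass. Splicing and RNA binding genes had 9 rises and 7 falls in 48, against 4 higher and 19 lower under median centring. The mRNA binding protein Igf2bp3 rose, with 8612 and 10229.6 in null kidneys, against 2345 and 2258 in wild type kidneys (log2 difference 2.03 ± 0.23, limma adjusted p = 0.000109), and the splicing factor Srsf1 fell (log2 difference -0.89 ± 0.26, limma adjusted p = 0.0296).

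**Figure D4:**
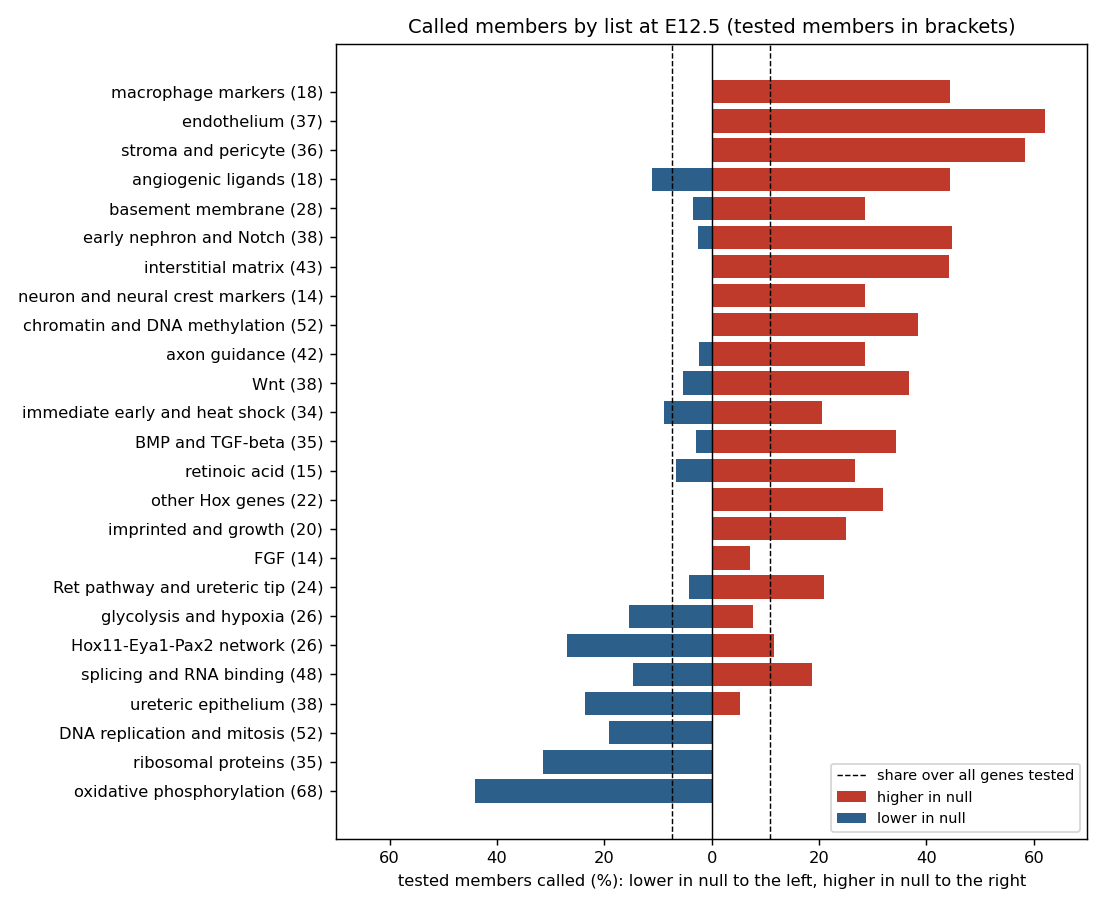
Percent of tested members of each gene list called lower (left) and higher (right) in null than in wild type kidneys at E12.5; dashed lines mark the share of all 14111 genes, 7.46% lower and 10.9% higher. Endothelium and stroma stand out to the right, and oxidative phosphorylation and ribosomal proteins to the left. The lists were chosen with earlier results of these data known.

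Long genes were higher in null kidneys more often than short ones. With 14010 of 14111 genes (99.3%) placed in 5 equal groups by the span of the gene in the genome, the share that rose was 6.17%, 9.10%, 10.5%, 11.6% and 17.4% in order of increasing span. The share that fell was 12.1%, 10.1%, 7.35%, 4.35% and 3.32%. The median span was 4.12 kb in the shortest group and 125.8 kb in the longest. Of lists that fell, oxidative phosphorylation had a median span of 7.11 kb and ribosomal proteins 3.67 kb. Ureteric trunk genes had 14.1 kb and DNA replication and mitosis genes 17.6 kb. Some lists that rose were long, at 63.7 kb for chromatin and 136 kb for axon guidance. Others were shorter, at 5.07 kb for macrophage markers and 13.1 kb for early nephron and Notch genes. Endothelial genes had 19.7 kb and stromal genes 31.6 kb. The part of gene length in the list results was not tested.

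Markers of sex and of other tissues were examined beside these lists. Xist, the X inactivation RNA, had 11018 and 13294 in null kidneys, against 2188 and 325 in wild type kidneys, and its second tested probe set had 4602 and 2727 in null kidneys, against 132 and 38.3 in wild type kidneys. Wild type sample 1 was the higher wild type sample with both. The Y-linked Eif2s3y had 3.7 and 1.1 in null kidneys, against 3.2 and 638 in wild type kidneys, above the floor in wild type sample 2 alone. Both null samples thus paired high Xist with Eif2s3y below the floor. The part of embryo sex in the E12.5 differences was not tested. Afp, a liver protein of the fetus, had 42 and 3.4 in null kidneys, against 5914 and 90.3 in wild type kidneys, Alb had 176 and 298 in null kidneys, against 2472 and 264 in wild type kidneys and Ttr had 278 and 238 in null kidneys, against 2819 and 471 in wild type kidneys, all highest in wild type sample 1. Of 8 markers of mesothelium, gut and liver 1 fell, Cpa1, a pancreatic protease, at 43.8 and 70.8 in null kidneys, against 936 and 975 in wild type kidneys (log2 difference -3.48 ± 0.36, limma adjusted p = 7.56e-05), with both null values below the floor. Erythroid markers had 1 fall in 9, against 7.46% of all genes. It was Tfrc, the iron receptor (log2 difference -1.22 ± 0.39, limma adjusted p = 0.0429). Embryonic globin Hbb-y had 22207 and 25511 in null kidneys, against 31072 and 30596 in wild type kidneys. Markers of adrenal, gonad and mesonephros had 1 rise in 8, Wnt5a (log2 difference 1.21 ± 0.37, limma adjusted p = 0.0359), a share close to the 10.9% of all genes.

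Outside the lists, the genes read by 2 or more probe sets that were all called one way were ranked by their mean difference. There were 193 such genes with rises and 107 with falls, of 6217 genes with 2 or more tested probe sets, while 70 had probe sets called both ways. Among the rises, Nfic, a nuclear factor, had 1384 and 3251 in null kidneys, against 42.7 and 42.6 in wild type kidneys and Runx1t1, a corepressor, had 707 and 803 in null kidneys, against 30.7 and 9.5 in wild type kidneys, wild type lying below the floor for both, so that their differences of 4.63 ± 0.78 and 3.14 ± 0.41 are lower bounds. Sox4, a factor of progenitor cells, had 11402 and 10639 in null kidneys, against 3044 and 3051 in wild type kidneys (log2 difference 1.85 ± 0.32, limma adjusted p = 0.00195) and was higher with all 6 of its probe sets. The matrix protease Adamts6 and the motor protein Myo1f rose, with log2 differences of 3.32 to 3.66 (limma adjusted p = 0.000902 to 0.00532). Among the falls, Gas5, a noncoding RNA that hosts small nucleolar RNAs, had 3868 and 1930 in null kidneys, against 12826 and 11881 in wild type kidneys (log2 difference -2.18 ± 0.31, limma adjusted p = 0.000572). The lipid carrier Fabp4, the general transcription factor subunit Gtf2h5 and the RNA binding protein Ssb fell, with log2 differences of -1.79 to -2.46 (limma adjusted p = 0.00338 to 0.0105).

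Among genes with 1 tested probe set, the largest rises included Zbtb12, a zinc finger gene, with 1715 and 7399 in null kidneys, against 101 and 138 in wild type kidneys (log2 difference 4.91 ± 0.58, limma adjusted p = 0.000164), and Cdk5r1, an activator of a neuronal kinase, with 964 and 1641 in null kidneys, against 118 and 98.6 in wild type kidneys (log2 difference 3.55 ± 0.33, limma adjusted p = 4.21e-05). The null samples of Zbtb12 lay far apart. Of the largest falls, the long noncoding RNA Pantr1 had 317 and 2038 in null kidneys, against 6786 and 7227 in wild type kidneys (log2 difference -3.12 ± 0.59, limma adjusted p = 0.003), again with its null samples far apart. The mucin gene Muc2 had 190.3 and 160.4 in null kidneys, against 1307 and 1605 in wild type kidneys (log2 difference -3.05 ± 0.48, limma adjusted p = 0.000927), and the adaptor subunit Ap1s3 had 375 and 402 in null kidneys, against 3193 and 2678 in wild type kidneys (log2 difference -2.91 ± 0.43, limma adjusted p = 0.000687), with little spread in either group. Ube3a, an imprinted ubiquitin ligase, was called both ways, from -2.43 to 2.89 between its probe sets.

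The E12.5 differences were then set beside those of null and wild type kidneys at E13.5 and E16.5, which come from other embryos. At those stages too, the arrays of null and wild type kidneys shared no scan day. The null arrays at E16.5 were read on a type of scanner used for no other array of the series. Scanner and genotype therefore cannot be told apart at E16.5. Of the probe sets higher at E12.5, 68.1% were called higher at E13.5 (58.5% of the 4408 called there), and 35.4% at E16.5 (27.7% of 4856), where 13.9% were called lower. Of those lower at E12.5, 54.2% were called lower at E13.5 (37.4% of 2741) and 40.7% at E16.5 (13.1% of 5872), where 3.65% were called higher. The shares over all probe sets at E13.5 were 14.4% higher and 8.97% lower, and at E16.5 15.9% higher and 19.2% lower. The actin ratio moved with genotype at these stages as well. It was 1.26 to 1.64 on null arrays at E13.5, against 3.12 to 3.99 on wild type arrays. At E16.5 it was 1.62 to 2.32, against 2.51 to 3.42. The part of array quality in the overlap between stages was not tested. A test of the change itself, of the null effect at E13.5 minus that at E12.5, called 6 of 30561 probe sets (0.0196%), all lower at E13.5, and had 2138 at an unadjusted p under 0.05. Among them 1 probe set of Sfpq, a splicing protein, had a null effect of 3.31 at E12.5, against -0.72 a day later. It was the only 1 of 6 tested Sfpq probe sets called higher at E12.5, and the lowest differed by -0.46. Its wild type signals there, 63.7 and 81.5, lay below the floor, so 3.31 is a lower bound. A probe set of Pnisr had effects of 4.64 at E12.5 and 0.64 at E13.5. Of 7 tested Pnisr probe sets, 2 were called higher at E12.5, and the lowest differed by -0.41. The count of 6 was between 0 and 58 when 1 sample was left out. The same test for E16.5 minus E12.5 called 4914 (16.1%), 1564 higher (5.12%) and 3350 lower (11.0%), and 2537 to 3596 with 1 sample left out.

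Genes of the mesenchymal network were followed over the stages. The Hoxa11 and Meox2 reductions were present at all 3 stages, with Meox2 at -1.64 ± 0.31 at E13.5 and -2.15 ± 0.31 at E16.5, and their stage differences were not called. Cited1 was down at E13.5 too (-3.52 ± 0.59) and stood at 0.09 ± 0.59 at E16.5, and the E16.5 minus E12.5 difference was 3.15 (adjusted p = 0.0216). Eya1 stayed down (-1.44 ± 0.43 and -2.11 ± 0.43), and so did Rspo3 (-1.39 ± 0.31 and -1.50 ± 0.31), with no stage difference called for either. Gdnf was down at E16.5 (-1.10 ± 0.25) and at -0.22 ± 0.25 at E13.5, not called there, and its stage differences were not called (0.84 to E13.5, adjusted p = 0.67). The Vwf effect was 5.21 ± 0.43 at E12.5, then 1.33 ± 0.43 and 2.51 ± 0.43 at the later stages, and its stage difference to E16.5 was called (-2.69, adjusted p = 0.0101) while that to E13.5 was not (adjusted p = 0.0762). Among the 37 vessel genes 19 rose at E13.5, where 14.6% of all genes did, and 16 at E16.5, where 20.9% did. Among the 35 ribosomal protein genes 25 fell at E13.5 (9.24% of all genes) and 9 at E16.5 (15.1%). Of the ureteric trunk genes 1 fell at E13.5 and 5 at E16.5. Nrip1, a nuclear receptor corepressor, had effects of 4.47 ± 0.28, 3.58 ± 0.28 and -0.76 ± 0.28 in the order of the stages. Wdr26, a ubiquitin ligase subunit, had 3.32 ± 0.31, 3.22 ± 0.31 and -1.47 ± 0.31. Both are among the 8 genes of lowest p for that difference.

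**Figure D5:**
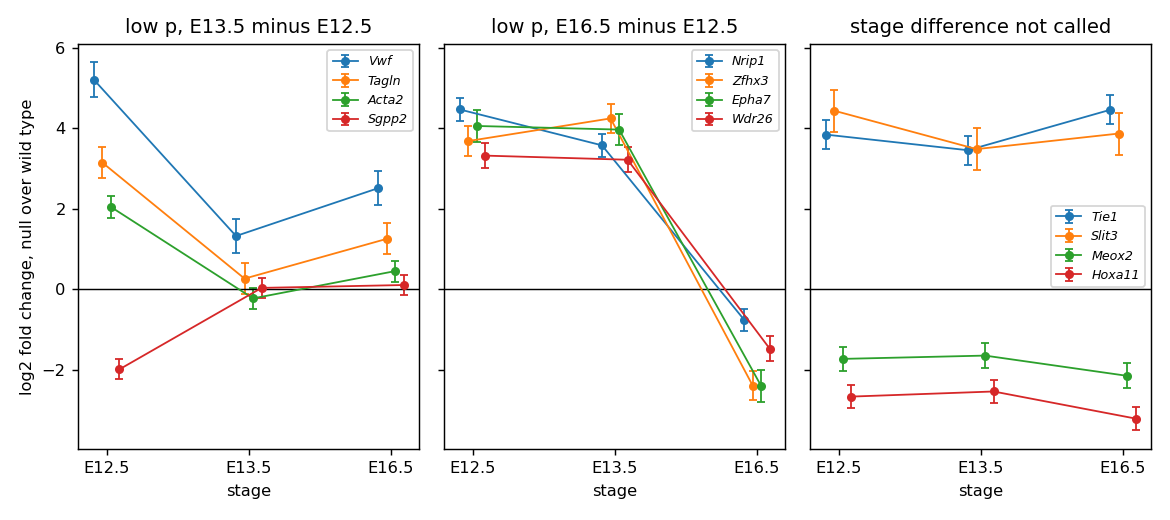
Log2 difference of null minus wild type kidneys, with standard errors, at the 3 embryonic stages (2 samples a group at each) for 12 genes in 3 panels: low p for the E13.5 minus E12.5 difference, low p for the E16.5 minus E12.5 difference, and stage difference not called. Nrip1, Zfhx3, Epha7 and Wdr26 are high at E12.5 and low at E16.5, whereas Tie1, Slit3, Meox2 and Hoxa11 keep their sign at all 3 stages.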

How the data were processed

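Whole kidney RNA was measured on Affymetrix 430A and 430B arrays. The values are the signal intensity of each probe set on a linear scale, as deposited by the authors and made with MAS5, per the submitters' processing notes, and the trimmed mean was 1500.3 to 1500.6 on the arrays compared. From these intensities, signals were floored at each design's 20th percentile (85.7 on 430A, 147.8 on 430B) and taken to log2. Control probe sets (64 per design) were left out, and a probe set was tested if the group mean passed the design's median in at least 1 group, which left 14577 and 15984. The value tables hold 22690 and 22575 probe sets on the 2 designs, of which 20393 and 14674 have 1 gene symbol.

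Differences were fitted with limma 3.58.1 (R 4.3.3) over all 14 samples and 7 groups, which gave 7 residual degrees of freedom, with a trended prior and Benjamini-Hochberg adjustment across both designs. An adjusted p under 0.05 was a call, and ± after a log2 difference is its standard error. The fit was also run on simulated data with independent noise in each sample. Those data held no scan day or actin ratio effect at E12.5, so that run cannot speak to such effects. A gene was read by its 430A probe set before its 430B one, and then by the highest mean.

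Named genes were the targeted genes, the 15 highest and 15 lowest among genes with 2 or more probe sets all called one way, the 12 highest and 12 lowest with 1 probe set, up to 6 called and 2 not called from each list, 8 genes called both ways and 8 per stage difference. Genes named outside that rule were chosen after their values were seen: Axin2, Bmp4, Bmp7, Cdh1, Cdh5, Cldn3, Col3a1, Col5a2, Cox6b1, Cox7a2, Dkk1, Dll1, Emilin1, Etv4, Etv5, Eya1, Flt1, Foxd1, Frem2, Gdnf, Hif1a, Hsp90aa1, Hspa8, Id2, Irx3, Itga8, Jag1, Kdr, Krt18, Meis1, Ncam1, Ndufv2, Notch1, Notch2, Nrarp, Pax8, Pdgfc, Podxl, Ret, Robo4, Rspo3, Shh, Six2, Srsf1, Tbx18, Vangl2, Wnt11, Wnt9b, Wt1, Acan, Matn1, Sox10, Dcx, Alb and Epcam, as well as the 4 printed promoters. The members and the 30 lists (1008 genes) were chosen with earlier results of these data known. Replicate numbers did not pair the samples: deviations of same-numbered null and wild type samples at E12.5 correlated at r = 0.04 on 430A and -0.002 on 430B, and over all pairs of groups at -0.353 to 0.28 and -0.176 to 0.107. Alternatives changed the normalization, floor, filter, covariate, block, trend and samples. Promoters came from the RefSeq table of GRCm38.p6.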

Additional observations from a re-analysis of the deposited data

Results flagged for a closer look

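The difference between the null effects at 2 stages was itself tested with limma, and results in which it was called were singled out. The effect at E13.5 minus that at E12.5 was called for 6 probe sets, all negative. They read BC016548 (-3.15), an unsymbolled probe set (-3.02), Sfpq (-4.02), 4933438K21Rik (-5.18), Cetn4 (-3.25) and Pnisr (-4.01), in log2 units, with adjusted p from 0.0152 to 0.0343.

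The effect at E16.5 minus that at E12.5 was called for 4914 probe sets. Only the null arrays at E16.5 were read on their type of scanner, so a change with stage and a scanner difference cannot be told apart here. The genes with the lowest p among those called at E12.5 were Nrip1 (-5.22), Zfhx3 (-6.07), Epha7 (-6.46), Wdr26 (-4.79), Cnot6l (-4.90), Gsdme (-4.67), Bbip1 (-4.47) and Ints2 (-3.78). Of 146 genes named here and called at E12.5, 64 had a called difference, 12 with a higher and 52 with a lower effect at E16.5. Among those whose course over the stages is described or plotted, Cited1 had a difference of 3.15, Vwf of -2.69, Acta2 of -1.59, Tagln of -1.89 and Sgpp2, a sphingosine phosphatase, of 2.09. Xist, as read by its first probe set above, had -9.78. Its null signals were 11018 and 13294 at E12.5, against 281 and 123 at E16.5. Wild type signals went from 2188 and 325 to 14121 and 9191. The Y-linked Eif2s3y had 3.7 and 1.1 in the E12.5 null samples, against 470 and 342 in the E16.5 ones. The part of embryo sex in the Xist difference was not tested.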

How the results depend on the processing

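The alternatives kept the direction of the named genes' differences wherever these were called. Of 146 named genes with calls, 65 were called in all 15 alternatives and 93 when any 1 sample was left out. The count of calls at E12.5, 5681, was 780 with the actin ratio as a covariate, and 2051 to 3540 when 1 sample was left out. Leaving out a sample leaves 1 in its group, which is then assumed to vary like the others. With only the compared samples it was 4134, with no filter 4732, with quantile normalization 4885, with a random scan day block 4595, with the 40th percentile as floor 5804, and with an offset of 50 in place of the floor 5592. With the replicate number as a block, the count was 5169, and since same-numbered samples did not deviate together over all pairs of groups, the samples share only a number. At E13.5, 7149 calls became 1210 with the actin covariate, 357 with only the compared samples and 3578 to 5998 with 1 sample left out. At E16.5, 10728 became 6095 to 7581 with 1 left out. The E13.5 minus E12.5 difference, 6 calls, gave 2 with the offset, 32 with the 40th percentile floor, 142 with no filter, 37 with no trend, 1 with only the compared samples and 0 to 58 with 1 left out. The E16.5 minus E12.5 difference, 4914, gave 2537 to 3596 with 1 left out. The wild type step between E13.5 and E16.5, 6274, gave 2820 with only the compared samples and 2058 to 4142 with 1 left out. Median centring gave 2842 higher and 3486 lower at E12.5, against 3790 and 1891, and 4025 higher and 2244 lower for E16.5 minus E12.5, against 1564 and 3350. The causes of these moves were not tested. Signals near the floor limit what the dim genes can show.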
